A study of Homo sapiens with 4 samples.

Results

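The region described here is the stretch of chromosome 17 from 45 to 50 Mb (build hg19), in band 17q21 beside the HOXB gene cluster. It is described as it appears in a list of intervals called with an anti-GATA4 antibody. Its members are the intervals of the list that start at or after 45 Mb and before 50 Mb. They numbered 286 of 21139 (autosomes and chromosome X only), which is 1.35% of the list and 26.6% of the 1075 intervals on chromosome 17. The list came from 4 CUT&RUN libraries of PaTu8988S, an established pancreatic adenocarcinoma cell line, made from 500000 cells each with 10 ug of the anti-GATA4 antibody MAB2606. All 4 libraries form a single group, and no perturbed or control group enters the values below. In CUT&RUN an antibody directs a nuclease to the bound protein in permeabilised cells, and the short fragments that it cuts free are sequenced. The members were chosen by their start positions, after the number of intervals there was known. The deposited list merges the libraries into intervals they had in common and gives a start and an end for each, without a score or a read count, so the spread between libraries and the depth behind an interval are unknown.

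GATA4 is a zinc-finger transcription factor that binds DNA at GATA motifs and takes part in the development of the heart and of endodermal organs such as the stomach, liver and pancreas. The HOXB genes encode homeodomain transcription factors, lie side by side in one cluster, and help to set position along the body axis of the embryo. In the RefSeq gene table of assembly GRCh38.p14, which was used for gene order only, 10 HOXB genes run from HOXB1 to HOXB13. The 7 nearest protein-coding neighbours on the HOXB1 side are, going outward, SKAP1, SNX11, CBX1, NFE2L1, COPZ2, CDK5RAP3 and PRR15L. SKAP1 encodes an adaptor protein of T-cell signalling, CBX1 a heterochromatin protein, and NFE2L1 a transcription factor of the stress response. The 7 nearest on the HOXB13 side are TTLL6, CALCOCO2, ATP5MC1, UBE2Z, SNF8, GIP and IGF2BP1. GIP encodes an incretin hormone of the gut, and IGF2BP1 an RNA-binding protein of fetal tissue and tumours. An hg19 annotation and sequence were not used here, so no interval is assigned to any of these genes, and the position of the HOXB cluster, 46.60 to 46.81 Mb, is the one stated when the region was chosen.

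The region was much fuller than most of its chromosome. It held 57.2 intervals per Mb, against 6.53 per Mb over the rest of chromosome 17 (460 intervals in 70.4 Mb, with the dense 25 to 30 Mb window left out), a ratio of 8.76. The intervals covered 279 kb or 5.58% of the region, against 0.517% of the rest of the chromosome. Among the 17 windows of 5 Mb on chromosome 17 it ranked 2, behind the 329 intervals of the 25 to 30 Mb window, while the other windows had a median of 15 intervals and ranged between 2 and 329. Among all 606 windows of the list it ranked 8. Both adjoining windows were sparse: 12 intervals started between 40 and 45 Mb and 17 between 50 and 55 Mb. The rest was uneven, since 116 of its 460 intervals started between 30 and 35 Mb and 126 between 35 and 40 Mb. The region was picked with its density known, so these values describe it and were not tested. The ratio was 15.3 when the region was limited to 45 to 47 Mb. It was 5.47 against the whole rest of the chromosome, with 25 to 30 Mb put back. Leaving out the intervals of the densest cluster described below, but keeping its length in the 5 Mb, gave 5.24.

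The limits of the region cut differently at its ends. The last interval before it ran from 44362660 to 44363141 (481 bp wide) and the first inside it from 45183334 to 45184189 (855 bp wide), with 820 kb between them. At the other end the last member ran from 49999237 to 50000011 (774 bp wide), and the next interval began 12.9 kb further on, at 50012891 (716 bp wide). The 2 last members thus had near neighbours beyond the limit, where 13 intervals started between 50 and 51 Mb, while they lay 972 kb from the nearest member on their other side.

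Inside the region the intervals lay in a pair of separate stretches with an almost empty space between them. Parting the members at gaps over 200 kb gave 5 pieces, of which 2 held 282 of the 286 intervals (98.6%). The first stretch ran from 45183334 to 46689760 and held 199 intervals (69.6%) in 1506 kb. The second ran from 47739017 to 49022160 and held 83 intervals (29.0%) in 1283 kb. Between the stretches stood 2 lone intervals, at 46969811 to 46970359 (548 bp) and 47178413 to 47178882 (469 bp). They split the space into gaps of 280, 208 and 560 kb. Counted per Mb, the region held 130, 70, 10, 73 and 3 intervals going from 45 to 50 Mb. Of its 50 bins of 100 kb, 17 had no interval, and 11 bins with 10 or more held 207 intervals (72.4%). The gap limit was chosen with the positions known, and limits of 300 or 500 kb gave 3 pieces.

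**Figure D1:**
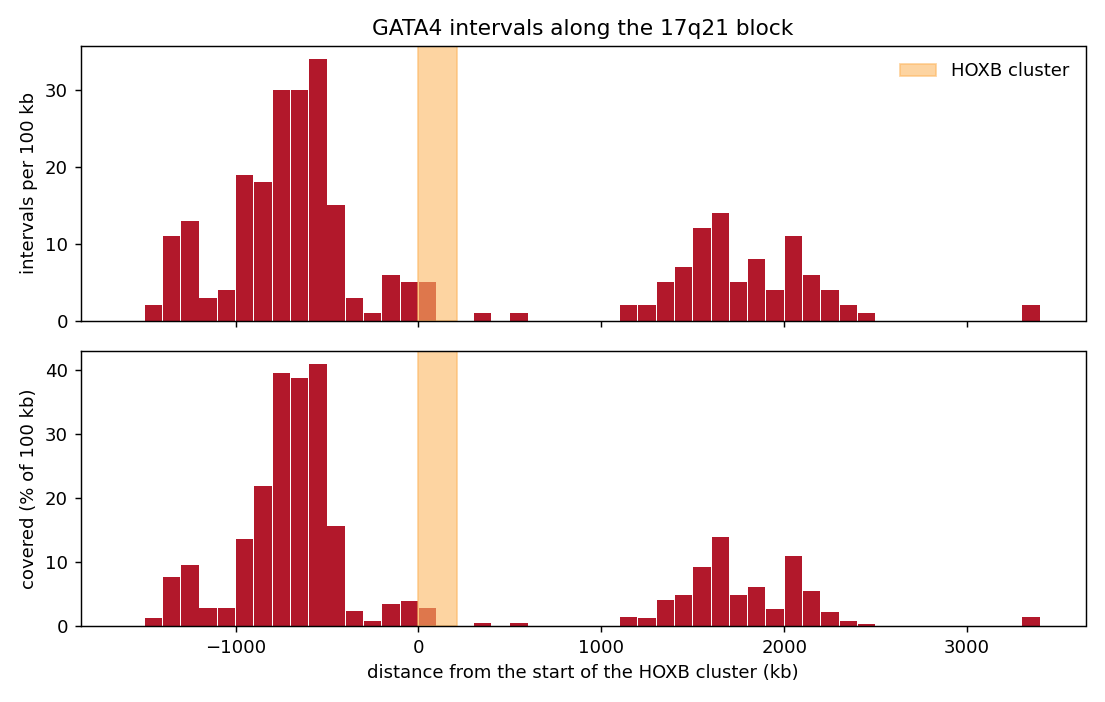
Number of intervals starting in each 100 kb bin (top) and share of each bin covered by intervals (bottom) along the region, against distance from the start of the HOXB cluster, which is shaded. The fullest bin, with 34 intervals and 40.9% covered, is 0.5 to 0.6 Mb before the cluster, and after the cluster 2 lone intervals stand before the second stretch.

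The HOXB cluster itself was less full than the region as a whole and lay at the inner edge of the first stretch. Of the 286 members, 5 fell between 46.60 and 46.81 Mb, covering 1.36% of that span. That is 23.8 intervals per Mb, against 57.2 over the whole region and 6.53 over the rest of chromosome 17. In order of position, the first was 674 bp wide (46629091 to 46629765). It was followed by intervals of 377 bp (46638054 to 46638431) and 653 bp (46640666 to 46641319). A further pair measured 650 bp (46686754 to 46687404) and 506 bp (46689254 to 46689760). The pair lay 45.4 kb away from the group of 3, and all 5 were narrower than the region's median of 799 bp. Their own median was 650 bp, near the 666 bp of the 171 members outside the dense cluster described below. The last of the 5 closes the first stretch. The remaining 120 kb up to 46.81 Mb held no interval, and the next one began 160 kb beyond that. On the near side, 2 members ended 18.6 and 8.18 kb before the cluster, at 46580925 to 46581409 (484 bp) and 46590950 to 46591824 (874 bp). The sides of the cluster were unequal, with 161 intervals in the 1000 kb on the side of lower coordinates and 5 in the 1000 kb on the other side. Within 500 kb the counts were 30 and 2, and within 1500 kb, which takes in part of the second stretch, 194 and 44.

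The fullest part of the region was a single dense cluster, which ended 460 kb before HOXB. Linking intervals no more than 12500 bp apart gave 21 clusters of 3 or more, which held 232 members (81.1%), and 22 members (7.69%) had no neighbour within that distance. In the rest of chromosome 17 the shares were 46.7% and 37.6%, and in the whole list 45.1% and 40.4%. The largest cluster ran from 45761133 to 46140347 and held 115 intervals (40.2% of the region) in 379 kb. It covered 148 kb, which is 39.0% of its own length and 53.0% of all covered bases of the region. It was the only one with 20 or more, since the second largest, from 45607995 to 45677155, held 16. By count it ranked 7 of the 96 clusters of 20 or more in the list, by covered share 22 and by median width 17. The cluster was a rise within a populated stretch: the 500 kb before it held 52 intervals and the 500 kb after it 22. Its edges were steeper on the HOXB side, with 26 intervals in the last 100 kb and 7 in the 100 kb after it, against 28 in the first 100 kb and 15 in the 100 kb before it. With a linking distance of 5 kb only 2 parts of it passed 20 intervals, from 45761133 to 45821156 (21) and from 45999918 to 46077819 (31), which together made 18.2% of the region.

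Cover and median width were near level between the first, middle and last parts of the dense cluster. Its 39 first, 38 middle and 38 last intervals covered 39.8%, 40.2% and 37.2% of the stretches they spanned, with median widths of 976, 1055 and 1041.5 bp. Several of the widest members lay near its start. Of the 5 widest of the whole region, 4 ran within 25.5 kb, from 45781164 to 45806621. Against 39.0% of the cluster as a whole, 69.1% of that span was covered. The span was drawn to start and end with members of this group, so its cover was high by choice. The widest measured 5669 bp (45800952 to 45806621). The others there measured 4045 bp (45787474 to 45791519), 3157 bp (45795288 to 45798445) and 3039 bp (45781164 to 45784203). Further along, the cluster held members of 3183 bp (45959035 to 45962218) and 3025 bp (45891521 to 45894546). It also held 3 more of the 10 widest, which measured 2654 bp (45851315 to 45853969), 2651 bp (45914649 to 45917300) and 2636 bp (46088514 to 46091150). Of the 10 widest members, 9 thus belonged to the dense cluster. The exception, from 48262995 to 48265644 (2649 bp), lay in the second stretch. The widest member ranked 3 on chromosome 17.

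**Figure D2:**
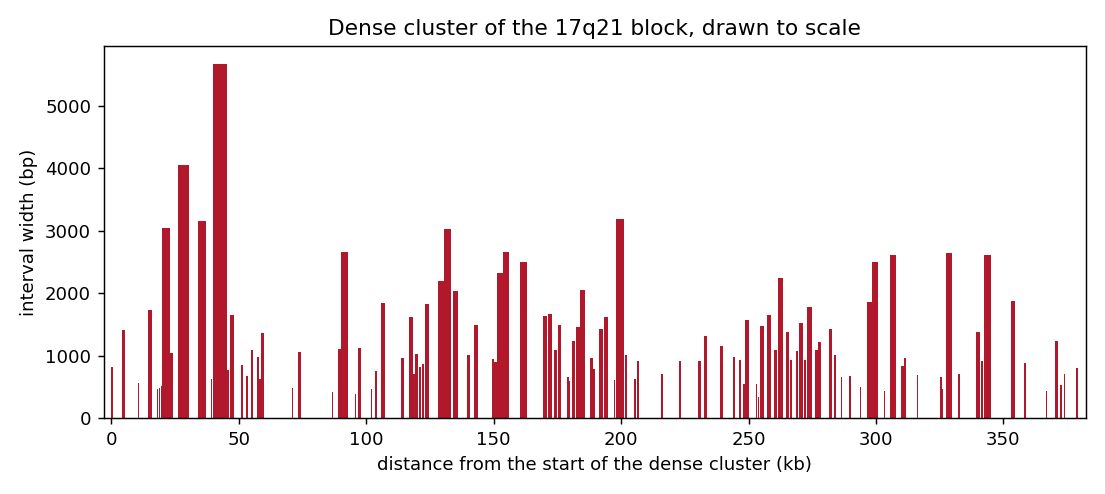
The 115 intervals of the dense cluster, each drawn as a bar from its start to its end (x axis, kb from the cluster's start) with its width as height (y axis, bp). The widest, 5669 bp, stands within the first 50 kb, and intervals of 2 kb or more recur up to the last 50 kb.

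Many neighbours in the dense cluster lay close together, and a minority were nearly touching. Of its 114 inner gaps, 53 (46.5%) were 1 kb or shorter and 21 (18.4%) were 100 bp or shorter; the median gap was 1145 bp and the shortest 5 bp. The longest, from 45835503 to 45847633, measured 12.1 kb. Over the whole region 25.6% of gaps were 1 kb or shorter, against 14.6% in the rest of chromosome 17 and 15.7% in the list. Other full windows had similar or higher shares: 25% on chromosome 17 from 25 to 30 Mb and 37.3% on chromosome 19 from 35 to 40 Mb. On chromosome 20 from 50 to 55 Mb the share was 26.7%. Joining intervals with gaps of up to 1 kb turned the cluster's 115 intervals into 62 pieces with a median width of 1758 bp, the longest running from 45800157 to 45809136 (8979 bp, from 4 intervals). Whether close neighbours are separate sites or parts of one broader interval cannot be told apart in a list without signal.

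Intervals in the region were wider than in the rest of the chromosome without 25 to 30 Mb, about as wide as in that window, and most of the difference from the rest lay in the dense cluster. The region's median width was 799 bp (quartiles 562 and 1119 bp, range 237 to 5669 bp), against 603.5 bp in the rest of chromosome 17 (quartiles 432 and 883 bp), a ratio of 1.32; the list's median was 586 bp. Among the 13 other windows of chromosome 17 with 5 or more intervals, median widths lay between 416 and 784 bp. The region's median was above each of them, the highest being that of the window from 25 to 30 Mb. In the windows from 30 to 35 and from 35 to 40 Mb, which belong to the rest, medians were 700.5 and 689 bp. Intervals of 1 kb or wider made up 33.9% of the region, 35.3% of the window from 25 to 30 Mb and 19.3% of the rest, and those under 400 bp 7.34%, 8.51% and 20.2% in the same order. Within the region the dense cluster had a median of 1019 bp (quartiles 704 and 1614 bp, n = 115) and the other 171 members one of 666 bp (quartiles 504 and 917.5 bp). Without the cluster the ratio to the rest of the chromosome was 1.10. Of the 22 members of 2 kb or more, 18 were in the cluster. Intervals along one chromosome are not independent and the list has no replicates, so no test was made of these widths.

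**Figure D3:**
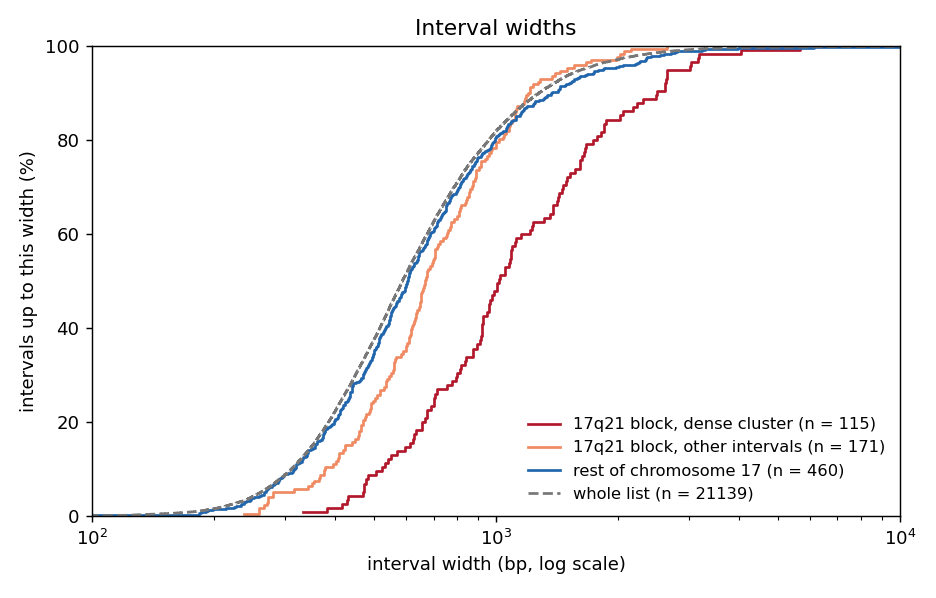
Cumulative share of intervals (y axis, %) by width (x axis, bp, log scale) for the dense cluster, the other members of the region, the rest of chromosome 17 without 25 to 30 Mb, and the whole list. The dense cluster's curve lies to the right, crossing 50% at 1019 bp, while that of the other members crosses at 666 bp, nearer to the 603.5 bp of the rest of the chromosome.

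Outside the dense cluster the 2 long stretches had near equal cover and overlapping widths, with a somewhat larger share of wide intervals in the second. Without it the first stretch held 84 intervals, or 74.5 per Mb of its remaining 1127 kb, and the second 64.7 per Mb. Their intervals covered 5.34% of each. Median widths were 649.5 bp (quartiles 495.5 and 882 bp) in the first without the cluster and 707 bp (quartiles 540 and 1060.5 bp) in the second. Intervals of 1 kb or wider were 15 of 84 (17.9%) in the first without the cluster and 22 of 83 (26.5%) in the second. These counts are small, and the difference was not tested. The second stretch had 9 clusters of 3 or more, with 9 intervals each in the largest, from 48254941 to 48299145 and from 48605846 to 48669612. Its 3 widest intervals were the one of 2649 bp named above, 48637011 to 48639171 (2160 bp) and 48132422 to 48134499 (2077 bp).

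Wide intervals tended to have close neighbours in the region, as in the whole list, but not among the members outside the dense cluster. In the whole region the 117 members with a neighbour within 1000 bp had a median width of 927 bp, the 147 with one between 1000 and 12500 bp away had 750 bp and the 22 without had 653.5 bp. In the rest of chromosome 17 the medians in the same order were 867, 650.5 and 485 bp, and in the whole list 722, 629 and 514 bp. Among the 171 members outside the dense cluster they were 633, 690 and 653.5 bp. Distance to the nearest neighbour and width had a Spearman correlation of -0.25 over the 286 members, near the -0.27 of the whole list. It was -0.45 over the 460 intervals of the rest of the chromosome and 0.00 over the 171 members outside the cluster. The points share their libraries and lie side by side, so these correlations describe the list only.

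The region was set beside 3 other full windows of 5 Mb. It held 286 intervals with a median width of 799 bp, while chromosome 17 from 25 to 30 Mb held 329 intervals with a median width of 784 bp, chromosome 19 from 35 to 40 Mb 511 with 883 bp, and chromosome 20 from 50 to 55 Mb 664 with 691.5 bp. Clusters of 20 or more numbered 1 in the 17q21 region, 4 on chromosome 17 from 25 to 30 Mb, 6 in the chromosome 19 window and 8 in the chromosome 20 window. They held 40.2%, 43.5%, 71.4% and 64.6% of the intervals in the same order. The largest cluster of each window held 115 intervals at 39.0% covered, 73 at 49.5%, 235 at 45.8% and 195 at 31.8%. The one of chromosome 20 ran from 49868615 to 50453003, so its count and cover include intervals before that window. Empty 100 kb bins numbered 17 in the 17q21 region, against 9, 2 and 8 in the other windows. Of the 14 windows of the list with 200 or more intervals, 6 had a higher median width than the 17q21 region. Medians over all 14 ranged from 623 to 1102 bp. No test of these differences was possible on a single merged list.

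**Figure D4:**
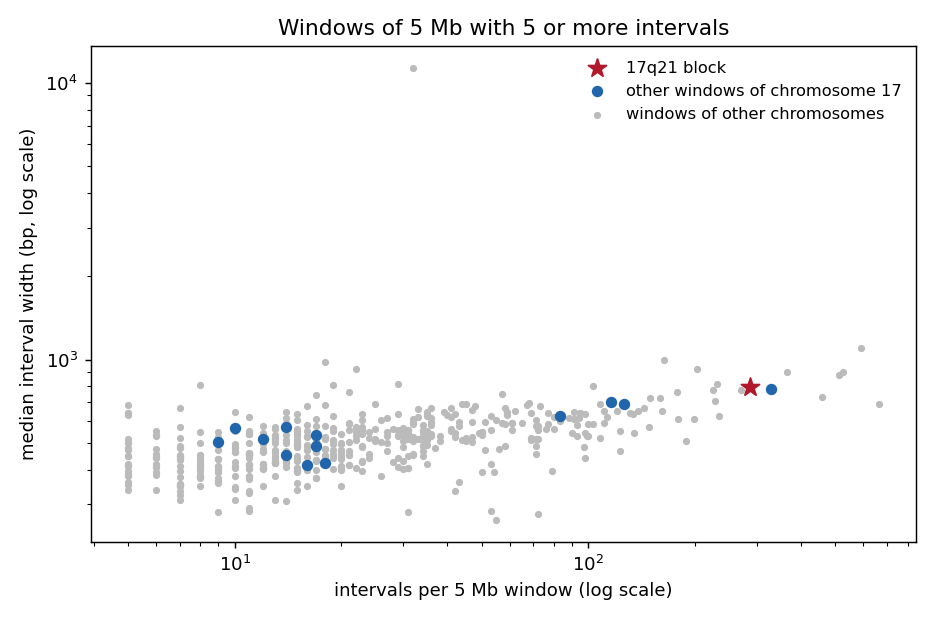
Median interval width (y axis, bp, log scale) against number of intervals (x axis, log scale) for each 5 Mb window with 5 or more intervals. The star marks the 17q21 region at 286 intervals and 799 bp; the other windows of chromosome 17 are blue, of which the one with 329 intervals and 784 bp lies nearest to it.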

How the data were processed

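The deposited file is a list of intervals shared by 4 GATA4 CUT&RUN libraries, given as start and end positions in bp (no other unit) in hg19. Per the submitters' processing notes, SEACR (a CUT&RUN peak caller) and HOMER (a peak annotation package) were used; their versions and parameters, and the overlap required between libraries, are not stated there. Of 21308 intervals, the 21139 on the 22 autosomes and chromosome X were used. Width is end minus start, and a gap is the next start minus the last end. Windows and bins count starts. Density outside the region was taken over the chromosome from its first to its last interval. Linking at 12500 bp and the limit of 20 intervals follow an earlier description of the list, and the linking code was tested on simulated intervals. Values were computed in Python 3.11.15 (pandas 2.3.3, numpy 2.4.6, scipy 1.17.1) and drawn with matplotlib 3.10.9. Named intervals are the 10 widest, those at the limits, the dense cluster, and those in or next to HOXB; the other coordinates were chosen after their values were seen. The region and its limits were chosen with earlier results of these data known. Gene names come from RefSeq GRCh38.p14, in order only; no sequence was used.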

Additional observations from a re-analysis of the deposited data

How the results depend on the processing

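Of 25 values recomputed under other settings, 11 stayed within the 95% binomial interval of the reported value or, for counts, within 1.5 times it. The other 14 moved further. Of the 25, 0 reversed, but only the ratios have a direction that could. The direction of the density ratio was known when the region was picked. The binomial interval takes intervals as independent, which they are not, and counts had another limit, so the 11 and 14 are a rough guide only. The ratio of interval density to the rest of chromosome 17, 8.76 in the report, was 12.1 for intervals at or above the list's median width. It was 5.47 against the whole rest of the chromosome and 15.3 for 45 to 47 Mb. With the cluster of 115 left out but its length kept, it was 5.24. The width ratio of 1.32 was 1.10 without that cluster, and also 1.10 when intervals under the median width were left out. The share of members in clusters of 20 or more, 40.2%, was 29.1% after joining intervals within 1 kb, 18.2% and 59.8% with linking distances of 5 and 25 kb, and 49.3% with a limit of 10 intervals. Coverage of 5.58% was 6.03% after joining and 4.92% at or above the median width. Leaving out the cluster and the limits of 100, 300 and 500 kb on gaps were chosen after seeing the data. No paired analysis was possible because the list merges the 4 libraries of a single group, and for the same reason no library could be left out. Read depth is not known, and a gap means that the libraries had no listed interval in common there.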
